A study of Mus musculus with 7 samples.

Results

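The acyl-CoA thioesterase genes were examined in adipocytes of the mouse line 3T3-L1, whose fibroblast-like precursors store fat once hormones induce them to differentiate. Of 9 genes named as members, 8 were measured among 18820 genes: Acot1, Acot2, Acot3, Acot4, Acot7, Acot9, Acot11 and Acot13. A member was taken from transcript clusters (the probe groups of the array) that the array annotation assigns to that symbol alone, and each of the 8 had 1 such cluster. Acot8 has no cluster of its own, because both of its clusters are also assigned to Snx21, and it is described apart. One set of 3 arrays came from cells given 1 µM of a commercial SCD inhibitor from the start of differentiation, and the other, of 4 arrays, from cells given the same volume of its solvent DMSO. SCD, stearoyl-CoA desaturase, introduces a double bond into saturated acyl-CoAs. Both groups received isobutylmethylxanthine, dexamethasone and insulin for 2 days, then insulin alone, and RNA was taken on day 7. The labels name neither the compound nor its selectivity, give 1 dose only, and do not say whether replicates were separate cultures, so p-values cover only the spread among these arrays, part or all of which may be technical.

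Acyl-CoA thioesterases split a fatty acyl-CoA into the free fatty acid and coenzyme A, the reverse of what acyl-CoA synthetases do, and so set the balance between activated and free fatty acids within a compartment. They fall into 2 structurally unrelated classes. The type I enzymes (Acot1 to Acot6) share an alpha/beta-hydrolase fold, sit side by side in the mouse genome and differ mainly in where they go: Acot1 to the cytosol, Acot2 to the mitochondrial matrix, and Acot3, Acot4 and Acot5 to peroxisomes. The type II enzymes (Acot7 and upward) have a hotdog fold. In mouse liver and heart several type I genes are known targets of the fatty acid sensor PPARα, and in brown fat Acot11 is known to restrain heat production.

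Of 12 measured genes that define adipocytes, 11, among them Adipoq and Fabp4, had mean log2 levels of 9.68 to 12.55 with the inhibitor and 10.27 to 12.63 in DMSO, and Lep, which encodes leptin, had 4.83 in both groups. Among these 12 genes 1 passed the test, the glucose transporter gene Slc2a4, which was lower. Over all genes 3.62% passed higher and 4.37% lower in limma. Of 11 measured preadipocyte markers, 4 were higher with the inhibitor and none lower in limma (6 at an unadjusted p under 0.05, and 2 to 4 higher over 17 alternatives), and their mean level ran from 6.99 to 7.04 on the inhibitor arrays and from 6.76 to 6.85 on the DMSO arrays. The 4 included Pdgfra (log2 difference 0.89, SE 0.093) and Pdgfrb (0.51, SE 0.068), receptors of platelet-derived growth factor, and their part in the results below was not tested. Muscle and macrophage markers had list means of 5.02 to 5.03 and 4.27 to 4.31 with the inhibitor and 5.15 to 5.20 and 4.31 to 4.34 in DMSO, with 1 of 8 lower (Des, by 0.98) and 0 of 8 passing in limma (1 at an unadjusted p under 0.05). Within a group, the correlation between arrays over all genes was 0.99902 to 0.99948.

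The upstream sequences of 3 members are shown: Acot2, the member that passed the test, Acot1, its type I neighbour, and Acot7, the member next closest to the threshold. Each is the 250 bases before a RefSeq start on GRCm38.p6, all on the plus strand, at chr12:83987611-83987860 for Acot2, chr12:84009252-84009501 for Acot1 and chr4:152185358-152185607 for Acot7. Capitals mark CCAAT (the CCAAT box) and GGGCGG (the GC box), each read on both strands.
Acot2: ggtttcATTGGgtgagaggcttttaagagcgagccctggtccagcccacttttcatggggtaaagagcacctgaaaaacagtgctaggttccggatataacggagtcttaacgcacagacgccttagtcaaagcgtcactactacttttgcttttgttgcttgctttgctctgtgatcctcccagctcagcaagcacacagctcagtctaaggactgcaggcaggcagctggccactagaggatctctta
Acot1: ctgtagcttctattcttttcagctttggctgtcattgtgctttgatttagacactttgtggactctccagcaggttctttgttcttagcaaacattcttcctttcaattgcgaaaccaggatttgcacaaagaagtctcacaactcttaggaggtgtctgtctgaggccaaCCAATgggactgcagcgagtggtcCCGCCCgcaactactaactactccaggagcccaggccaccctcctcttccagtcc
Acot7: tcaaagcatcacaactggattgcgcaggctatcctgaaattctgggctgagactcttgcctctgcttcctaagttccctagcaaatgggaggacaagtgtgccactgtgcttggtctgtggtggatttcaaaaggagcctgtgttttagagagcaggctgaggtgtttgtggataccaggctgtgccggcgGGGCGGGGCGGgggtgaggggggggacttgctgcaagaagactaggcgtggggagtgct
Acot2 and Acot1 are neighbours on chromosome 12. Of the aligned positions of their upstream stretches 50.2% were identical, close to 49.3% for Acot2 with Acot7 and 49.7% for Acot2 with Acot9. Acot2 held 1 CCAAT box, Acot1 held 1 CCAAT and 1 GC box, and Acot7 held 2 overlapping GC boxes. In all 32851 promoter entries of the same length, 33.8% held a CCAAT box and 32.7% a GC box. The core motif of nuclear receptors, AGGTCA on either strand, was in none of these 3 and in 14% of all entries, and the PPAR element TGACCTNTGACCT, which contains it, was in none of the members' entries and in 0.0335% of all. Among the members AGGTCA was found in 1 entry, that of Acot4, which also held 1 CACGTG (the palindromic E-box, 6.02% of all entries) and 3 matches of TATAAA, of which 2 overlap (12.4% of all entries). Acot9 held 1 match of TATAAA.

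The comparison asks how thioesterase transcripts differ when SCD is inhibited throughout differentiation. With the inhibitor 1 of the 8 measured genes passed an adjusted p of 0.05 over all genes, Acot2, which fell. None passed upward in limma, and at an unadjusted p under 0.05 there were 2 higher (Acot7 and Acot9) and 1 lower (Acot2). Over all 18820 genes, 8% passed, 3.62% higher and 4.37% lower, and 21.9% had an unadjusted p under 0.05. The median log2 difference of the 8 members was 0.02, and that of all genes was -0.0037. The median absolute difference was 0.073 for the members and 0.045 for all genes. Their values are given by compartment.

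**Figure D1:**
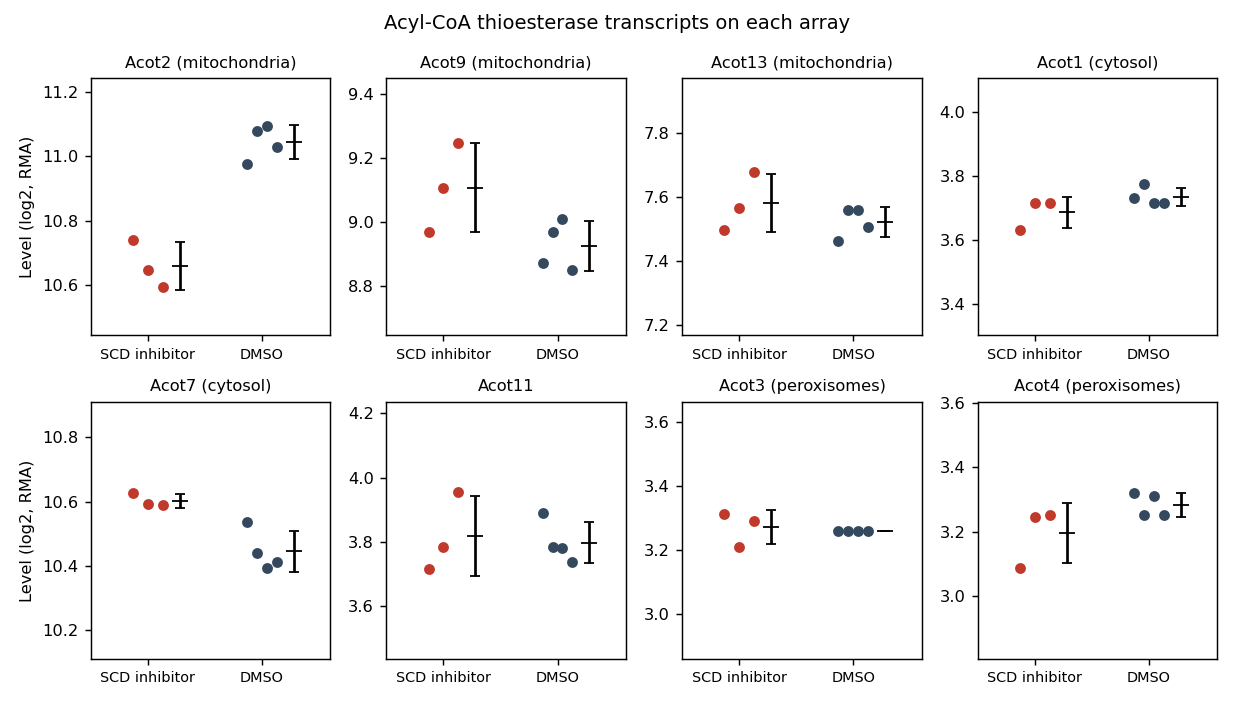
Level of each measured thioesterase transcript on the log2 scale, with 1 point per array (3 SCD inhibitor arrays on the left and 4 DMSO arrays on the right of each panel) and the mean ± SD in black. Each panel has its own range, and all ranges have the same length. Acot2 is wholly lower and Acot7 wholly higher with the inhibitor, and the groups of the other 6 genes overlap.

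Acot2, the thioesterase of the mitochondrial matrix that acts on long-chain acyl-CoAs, read 10.74, 10.64 and 10.59 on the inhibitor arrays, against 10.97, 11.08, 11.09 and 11.03 on the DMSO arrays. Every inhibitor array lay below every DMSO array, as was so for 9.02% of all genes. The means were 10.66 ± 0.075 with the inhibitor and 11.04 ± 0.054 in DMSO (SD, n = 3 and 4), so that Acot2 was 1.31-fold lower (log2 difference -0.39, SE 0.044, 95% interval -0.49 to -0.28, adjusted p = 0.00358 in limma). Its call held in each of the 7 fits that left out 1 array, with adjusted p from 0.00662 to 0.0244 in limma and a difference from -0.43 to -0.35. With the replicate number as a block the call was lost (difference -0.39, adjusted p = 0.0705 in limma). DMSO 4 has no inhibitor array of its number, so it does not enter the difference in that fit. Over all genes 437 passed higher and 459 lower there, against 682 and 823 in the fit as reported. Why the call was lost was not tested. In RNA from whole cultures, fewer cells of a type and less RNA per cell cannot be told apart.

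Acot9, a mitochondrial hotdog-fold enzyme, read 8.97, 9.11 and 9.25 with the inhibitor, against 8.87, 8.97, 9.01 and 8.85 in DMSO. The lowest inhibitor array lay among the DMSO arrays. Its log2 difference of 0.18 (SE 0.071, 95% interval 0.01 to 0.35) did not pass (adjusted p = 0.201 in limma), and no alternative changed that (adjusted p from 0.0764 to 0.404). A second cluster, assigned to both Acot9 and its intronless relative Acot10, read 5.60, 5.83 and 5.93 with the inhibitor, against 5.66, 5.68, 5.54 and 5.68 in DMSO. Its difference of 0.15 had the same sign and likewise missed the threshold (adjusted p = 0.399 in limma over all clusters, a fit added after seeing the data, in which 5.34% of clusters passed). Both clusters were lowest on SCD inhibitor 1 and highest on SCD inhibitor 3 within the inhibitor group.

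Acot13, a small hotdog-fold thioesterase associated with mitochondria and known to bind phosphatidylcholine transfer protein, read 7.50, 7.57 and 7.68 with the inhibitor, against 7.46, 7.56, 7.56 and 7.51 in DMSO. The groups overlapped, and the difference of 0.06 (SE 0.047, 95% interval -0.05 to 0.17) did not pass (adjusted p = 0.526 in limma). The 3 mitochondrial members thus had differences of -0.39, 0.18 and 0.06, of which the first passed.

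In the cytosol, Acot7, a hotdog-fold enzyme of long-chain acyl-CoAs that is abundant in brain, read 10.63, 10.59 and 10.59 on the inhibitor arrays, against 10.54, 10.44, 10.39 and 10.41 on the DMSO arrays. All inhibitor arrays were above all DMSO arrays, by a narrow margin over DMSO 1. Groups lay apart upward in this way for 8.3% of all genes, and in either direction for 17.3%. Acot7 averaged 10.60 ± 0.022 with the inhibitor and 10.44 ± 0.064 in DMSO (SD, n = 3 and 4), a 1.12-fold difference (log2 0.16, SE 0.037, 95% interval 0.07 to 0.25) that just missed the threshold (adjusted p = 0.0501 in limma). It passed in 9 of 17 alternatives. Without DMSO 1, the DMSO array with the highest Acot7, the difference was 0.19 (adjusted p = 0.0089 in limma), and without any other single array the adjusted p was between 0.122 and 0.138. Its side of the threshold thus changed with the processing, while its difference stayed between 0.14 and 0.19.

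**Figure D2:**
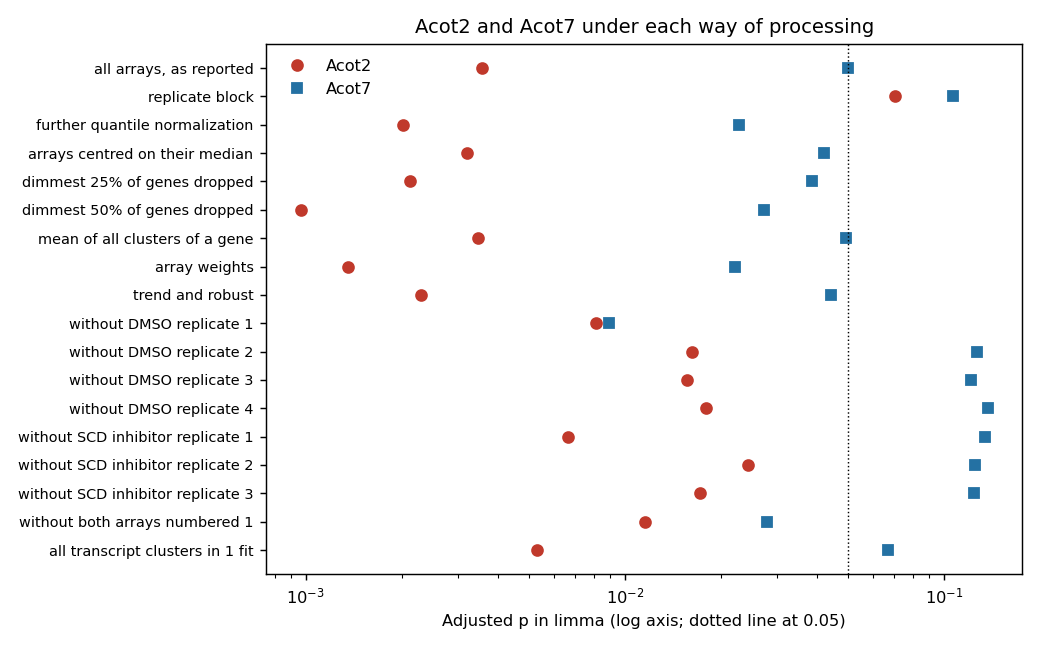
Adjusted p of Acot2 (circles) and Acot7 (squares) in limma on a log axis, with 1 line for the fit as reported and 1 for each of 17 alternatives, and a dotted line at 0.05. Acot2 stays left of the line except with the replicate number as a block (0.0705), and Acot7 lies on both sides.

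Acot1, the cytosolic type I enzyme, read 3.63, 3.71 and 3.71 with the inhibitor, against 3.73, 3.78, 3.71 and 3.71 in DMSO. Its difference of -0.05 (SE 0.029, 95% interval -0.12 to 0.02) did not pass (adjusted p = 0.408 in limma), and 4 of the 7 arrays gave the value 3.71. Acot11, an enzyme with a lipid-binding START domain that is known from brown fat, read 3.71, 3.78 and 3.96 with the inhibitor, against 3.89, 3.78, 3.78 and 3.74 in DMSO. Its groups overlapped throughout, with a difference of 0.02 (SE 0.063, adjusted p = 0.881 in limma), which was -0.05 without SCD inhibitor 3. A further cluster, assigned to both Acot11 and Fam151a, had a difference of 0.03 (adjusted p = 0.518 in limma over all clusters).

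Of the peroxisomal members, Acot3, which in mouse acts on long-chain acyl-CoAs, read 3.31, 3.21 and 3.29 with the inhibitor and 3.26 on all 4 DMSO arrays. Its difference of 0.01 (SE 0.027, adjusted p = 0.815 in limma) did not pass and was -0.00708 without SCD inhibitor 1. Acot4, which in mouse is known for succinyl-CoA as a substrate, read 3.09, 3.25 and 3.25 with the inhibitor, against 3.32, 3.25, 3.31 and 3.25 in DMSO. The low value is that of SCD inhibitor 1, and the difference of -0.09 (SE 0.046, 95% interval -0.20 to 0.02) did not pass (adjusted p = 0.332 in limma). Without SCD inhibitor 1 it was -0.03.

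Acot8, a peroxisomal enzyme of broad chain-length range that also handles bile acid CoA esters, could be seen only through the 2 clusters it shares with Snx21, a sorting nexin whose gene overlaps the same annotation. One read 7.71, 7.67 and 7.47 with the inhibitor, against 7.72, 7.74, 7.77 and 7.84 in DMSO. It differed by -0.15 (SE 0.063, adjusted p = 0.276 in limma over all clusters) and missed the threshold. Its highest inhibitor array lay just below its lowest DMSO array. Groups lay apart downward in this way for 9.02% of all genes, and the share of all clusters was not computed. The other read 7.37 on all inhibitor arrays and 7.37, 7.37, 7.37 and 7.42 in DMSO (difference -0.01, adjusted p = 0.756 in limma over all clusters). Which of the genes either cluster reports was not tested.

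**Figure D3:**
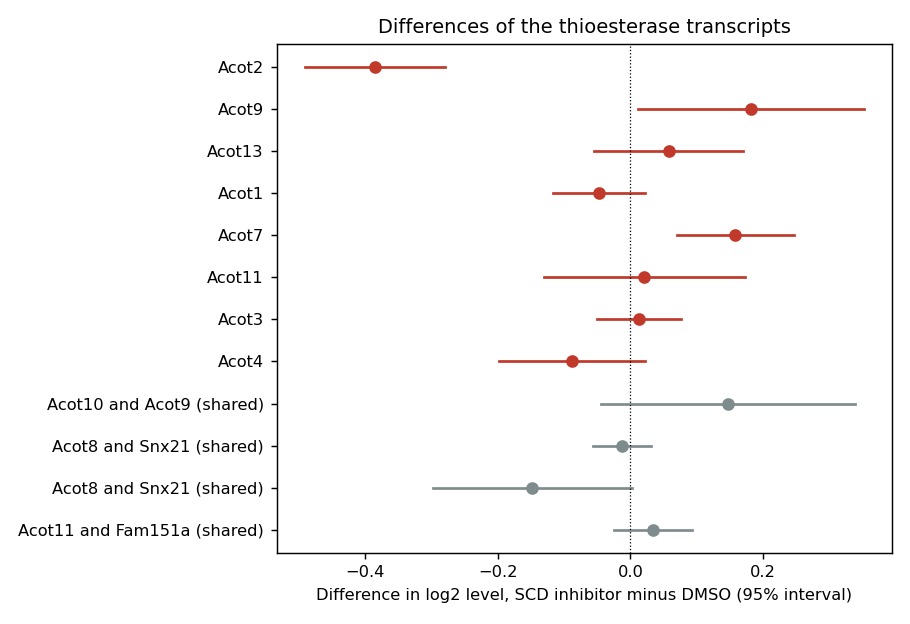
Log2 difference, SCD inhibitor minus DMSO, with its 95% interval from limma, for the 8 measured members (red) and for the 4 clusters that a member shares with another gene (grey). The interval of Acot2 lies wholly below 0, those of Acot7 and Acot9 lie wholly above 0, and the other 9 reach across it.

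The level on the array limits what the dim members could show. Acot1, Acot3, Acot4 and Acot11 had mean levels under 4, at the lower end of a scale that ran from 2.35 to 13.15 for gene means. Of the 5708 genes with a mean under 4, 0.228% passed the test, and of the 13112 genes at 4 or more, 11.4% passed. In 92.7% of the dim genes at least 2 arrays shared exactly the same value, which was so for 70.0% of the others. No detection calls were used, so whether these 4 genes were expressed at all cannot be said, and a change in them could have gone unseen. Levels of different genes depend on their probes and are not compared with each other. Whether the probes of Acot1 and Acot2, whose coding regions are closely alike in mouse, tell the pair apart is not given in the sources used here.

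Along chromosome 12 the type I genes follow each other in the order Acot2, Acot1, Acot4, Acot3, Acot5, Acot6. Acot2 was the only gene of this row and of its 4 measured flanking genes that passed. Acot1, Acot4, Acot3 and Acot5 had mean levels under 4, where 0.228% of genes passed. A change in these genes could have gone unseen, so the row does not show that Acot2 alone changed. Acot5, the third peroxisomal enzyme of the cluster, averaged 3.38 in both groups (difference -0.01), and Acot6 averaged 5.36 with the inhibitor and 5.38 in DMSO (difference -0.02). On the Acot2 side, Numb, a regulator of Notch signalling, had a difference of -0.01 and Riox1, a histone demethylase, one of -0.03. Beyond Acot6, Dnal1, a dynein light chain, had a difference of -0.00 and Pnma1 one of -0.04. Adjusted p in limma was at least 0.332 for all 9 neighbours of Acot2.

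**Figure D4:**
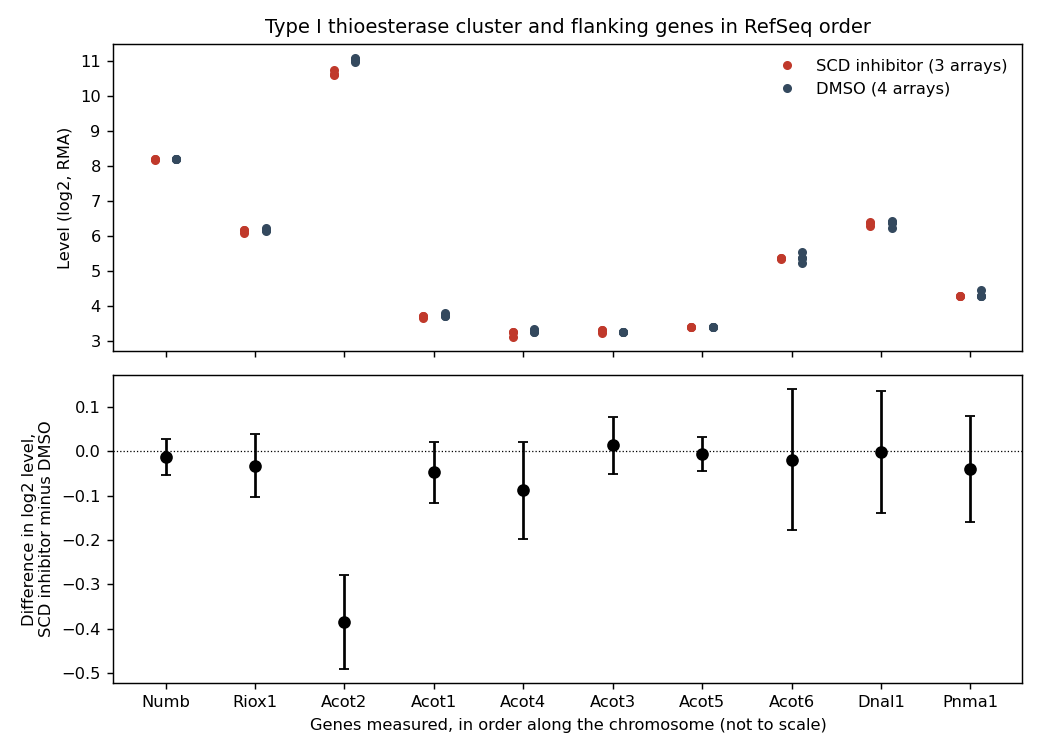
The type I cluster and 2 measured genes on either side, in RefSeq order and not to scale. The upper panel gives the log2 level on each of the 3 inhibitor arrays (left of each pair) and 4 DMSO arrays, and the lower panel the log2 difference with its 95% interval; only Acot2 has an interval that leaves out 0.

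Differences between members were set against each other within arrays for 4 pairs, with an exact two-sided permutation test over the 35 ways to choose 3 of 7 arrays. The smallest p this design can give is 0.0571, so no pair could pass 0.05. In 3 of the pairs a member is dim (Acot1 beside Acot2, Acot3 and Acot4, Acot11 beside Acot7), and their shifts of -0.34, -0.10 and -0.14 are not read further. Acot9 minus Acot13, both mitochondrial and neither dim, was 1.47, 1.54 and 1.57 with the inhibitor, against 1.41, 1.41, 1.45 and 1.34 in DMSO, a shift of 0.12 with groups that did not overlap (exact permutation p = 0.0571, adjusted over the 4 pairs 0.114). Taken alone, Acot9 and Acot13 each had groups that overlapped. Groups lay apart in either direction for 17.3% of single genes, and the share of gene pairs that do so was not computed. The size of the gap itself depends on the probes and is not read.

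The genes whose levels followed Acot2 most closely over the 7 arrays were Ascc2, a subunit of a transcription coactivator complex (Pearson r = 0.996), Boc, a cell surface coreceptor of hedgehog signalling (r = 0.989), and Reep6, a shaper of the endoplasmic reticulum (r = 0.988). The 7 arrays fall into the 2 treatment groups, so any gene that fell steadily has a high r, and 130 genes had an r above 0.95. Ascc2 fell by 0.27, Boc by 0.42 and Reep6 by 0.34 on the log2 scale. Among the other members r with Acot2 ran from -0.89 for Acot7 to 0.46 for Acot1.

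Over all genes 8% passed, 3.62% higher and 4.37% lower, and 21.9% had an unadjusted p under 0.05 in limma. The list counts below stand beside these shares and were not tested as sets. Around the thioesterases, 1 of 15 measured other hydrolases of thioesters rose and none fell in limma (3 at an unadjusted p under 0.05). It was Them6, a gene of the thioesterase superfamily that read 7.58, 7.66 and 7.48 with the inhibitor, against 7.23, 7.21, 7.27 and 7.35 in DMSO. All inhibitor arrays lay above all DMSO arrays, and the difference was 0.31 (SE 0.050, adjusted p = 0.0132 in limma), with adjusted p = 0.0514 without SCD inhibitor 1. Them6 passed in 14 of 17 alternatives (highest adjusted p = 0.132 in limma, without both arrays numbered 1). Hibch, which hydrolyses a CoA ester of valine breakdown, differed by -0.20 without passing (adjusted p = 0.0679 in limma), and the palmitoyl-protein thioesterases Ppt1 and Ppt2 both had one of 0.12.

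Enzymes that make acyl-CoA moved in both directions: 2 of 20 measured rose and 2 fell. Acss2, which makes acetyl-CoA from acetate, rose to 10.93 ± 0.036 with the inhibitor, against 10.21 ± 0.12 in DMSO (log2 0.73, adjusted p = 0.00112 in limma). Acsf2, an acyl-CoA synthetase of medium-chain acids located in mitochondria, fell to 10.33 ± 0.039 with the inhibitor, against 10.99 ± 0.071 in DMSO, and was 1.58-fold lower (log2 -0.66, SE 0.043, adjusted p = 3.16e-04 in limma). Both calls held without any single array. Acsl4, which prefers arachidonate, was lower by 0.36 on the log2 scale (difference -0.36), and its call was lost in limma when DMSO 4 (adjusted p = 0.0517) or SCD inhibitor 3 (0.0614) was left out. Over the 17 alternatives, 1 to 3 synthetases rose and 1 to 3 fell. The 3 listed synthetases Acsl1, Acsl3 and Acsm3 were not analysed here.

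Coenzyme A itself is the other product of the reaction. Of 13 measured genes of its synthesis and breakdown 1 fell, Coasy, the enzyme of the last steps of synthesis, by 0.26 (adjusted p = 0.0216 in limma). That call was lost in 5 of the 7 fits without 1 array (adjusted p up to 0.0757 in limma, without SCD inhibitor 1) and held in 10 of 17 alternatives. Nudt7 (0.02) and Nudt19 (0.24), which cleave coenzyme A in peroxisomes, did not pass. None of 7 acyl-CoA binding proteins passed in limma, with 3 at an unadjusted p under 0.05, and 0 to 1 rose over the alternatives. Dbi, the main one, had a difference of 0.07.

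Of 8 measured genes of carnitine transfer, the other exit of acyl groups from coenzyme A, 2 rose and 1 fell in limma (4 at an unadjusted p under 0.05). All 8 had mean levels of 4 or more, where 11.4% of genes passed. The listed Cpt1b was not analysed here. Cpt1a, which passes long-chain acyl groups to carnitine at the outer mitochondrial membrane, rose by 0.43 (SE 0.034, adjusted p = 7.6e-04 in limma), while Slc25a20, the carrier that brings acylcarnitine into the matrix, fell by 0.36 (SE 0.048, adjusted p = 0.0063 in limma). Cpt1c, a form known mainly from brain, rose by 0.41, a call lost without DMSO 4, SCD inhibitor 2 or SCD inhibitor 3 (adjusted p up to 0.0653 in limma), and it passed in 12 of 17 alternatives. Over these 1 to 3 genes of the list rose and 0 to 1 fell.

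In the matrix, where Acot2 acts beside β-oxidation, 2 of 18 measured enzymes fell and none rose in limma (10 at an unadjusted p under 0.05 in either direction). Their median difference was -0.09, against -0.0037 over all genes. All 18 had mean levels of 4 or more, where 11.4% of genes passed, and 2 of 18 lies near that share. Over the 17 alternatives 0 to 2 rose and 1 to 5 fell, with 4 lower and 2 higher after quantile normalization and with centred arrays, and 5 lower and 2 higher without the dimmest 50% of genes. Hadhb, the thiolase subunit of the trifunctional protein, fell by 0.20 (SE 0.028, adjusted p = 0.00836 in limma). Decr1, which reduces a double bond in the oxidation of unsaturated fatty acids, fell by 0.23, a call lost without DMSO 1, DMSO 4 or SCD inhibitor 2 (adjusted p up to 0.058 in limma), and it passed in 12 of 17 alternatives. Among peroxisomal enzymes, where Acot3, Acot4 and Acot8 act, 2 of 16 rose and 3 fell (1 to 2 and 1 to 5 over the alternatives), with a median of -0.09. These 16 also had mean levels of 4 or more, and 10 had an unadjusted p under 0.05 in limma. Acox2, an oxidase of branched-chain acyl-CoAs, was 4.07-fold lower and Ehhadh, the bifunctional enzyme, 2.66-fold lower, beside differences of 0.01 and -0.09 for Acot3 and Acot4. The latter 2 had mean levels under 4, where a change could have gone unseen. Phyh, which starts the breakdown of phytanic acid, fell by 0.30, but kept its call in 1 of the 7 fits without 1 array (adjusted p up to 0.139 in limma, without SCD inhibitor 2) and in 8 of 17 alternatives.

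Of 23 measured PPAR targets of fatty acid handling, a list that overlaps the lists above, 3 rose and 4 fell, with a median of -0.06. The largest differences were those of Ehhadh, of Ucp3, a mitochondrial carrier of muscle and fat, which fell by 0.48 (adjusted p = 0.0134 in limma, and 0.0506 without SCD inhibitor 3), and of Cpt1a. Angptl4 rose by 0.26 (adjusted p = 0.0269 in limma) and Plin2 by 0.14 (adjusted p = 0.0403 in limma), beside the 4 genes of the list that fell. Pdk4, a kinase that turns off pyruvate dehydrogenase, had a difference of -0.05 and did not pass. In the 7 fits without 1 array 1 to 2 of the list rose, against 3 in the fit as reported. Cpt1a passed in all 7, so Angptl4, Plin2 or both lost their call in each of them. Over all alternatives 1 to 3 rose and 1 to 4 fell.

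**Figure D5:**
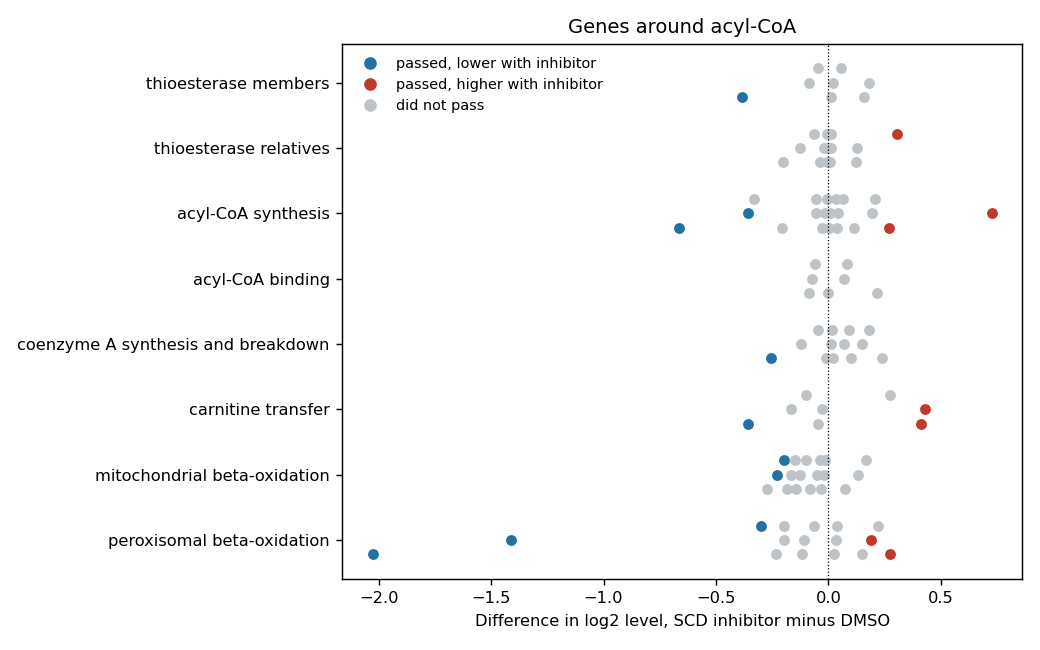
Log2 difference, SCD inhibitor minus DMSO, for each measured gene (1 point per gene) of the thioesterase members and of 7 lists of genes around acyl-CoA. Blue points passed and were lower with the inhibitor, red points passed and were higher, and grey points did not pass; Acot2 is the blue point of the top row, and the points farthest left are Acox2 and Ehhadh.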

How the data were processed

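The deposited values are transcript levels on the log2 scale, 1 per transcript cluster and array, made by the authors with RMA (background correction, normalization between arrays, summary of probes), per the submitters' processing notes. Its version and the annotation release are not given there. That the scale is log2 was inferred from the range of the values. The number of arrays limits the precision.

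Of 28996 clusters, 21218 had 1 symbol, 1881 several and 5897 were not listed in the annotation. Per gene, the single-symbol cluster with the highest mean over the 7 arrays was kept, leaving 18820 genes and no filter. Arrays were grouped by the treatment label. All entered 1 limma 3.58.1 fit (R 4.3.3, lmFit and eBayes, 5 residual and 1.68 prior degrees of freedom), with Benjamini-Hochberg adjustment over all genes and a threshold of 0.05. On simulated data for 18820 genes, 79% of genes changed by 0.4 and 100% of those changed by 1 (log2) were called.

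Members and the 12 gene lists were chosen with earlier results of these data known. Named were all members, up to 3 called genes per list with the largest change (or 1 with the smallest p), the 3 genes most correlated with a called member and the genes in and beside the type I cluster. Ppt1, Ppt2, Hibch, Nudt7, Nudt19, Dbi, Adipoq, Fabp4, Lep, Pdk4, Angptl4 and Plin2 lie outside that rule where printed and were chosen after their values were seen. Promoter sequences are RefSeq's (GRCm38.p6), and 8 of 9 members had an entry. The alternatives were a replicate block, further quantile normalization, median centring, dropping dim genes, averaging clusters, array weights, trend and robust options, leaving out arrays, and a fit of all clusters, added after seeing the data.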

Additional observations from a re-analysis of the deposited data

How the results depend on the processing

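With the replicate number as a block, 437 genes were higher and 459 lower, no member passed, and Acot2 had a difference of -0.39 with adjusted p = 0.0705 in limma. Deviations of same-numbered arrays from their group means correlated at 0.174, 0.138 and 0.0796. Arrays with different numbers were not set beside these values, so they cannot decide whether same-numbered arrays were paired. Acot7 passed, making 1 member higher, after quantile normalization (0.16), with centred arrays (0.17), without the dimmest 25% or 50% of genes (0.16 in both), with clusters averaged (0.16), array weights (0.17), trend and robust options (0.16) and without both arrays numbered 1 (0.18); without 1 array its difference ran from 0.14 to 0.19 and 0 to 1 members were higher. Signs turned only for differences that did not pass: Acot3 (-0.00214 with array weights, -0.00708 without both arrays numbered 1, and -0.00708 to 0.0435 without 1 array), Acot11 (-0.0486 to 0.0728 without 1 array), Acot5 (0.00667 with centred arrays), Acot6 (-0.0671 to 0.0355 without 1 array), Pnma1 (-0.0586 to 0.00684 likewise) and Dnal1 (0.0127 with the block, 0.0107 after quantile normalization or with centred arrays, and -0.0465 to 0.0366 without 1 array). Over all genes, 1032 were higher after quantile normalization and 1117 with centred arrays, and 434 were higher and 374 lower without both arrays numbered 1; without 1 array 369 to 712 were higher and 541 to 643 lower. The median difference of all genes was -0.0037 in the fit as reported. Over the settings it ran from -0.0078 (without SCD inhibitor 2 or without SCD inhibitor 3) to 0.0090 (centred arrays). The cause of these shifts was not tested. Of 129 member values under alternatives, 115 kept their sign and their side of the threshold, as did all those of the member pairs, whose exact test could not pass. Of the named genes' values outside the members, 443 did so, 49 lost and 2 gained a call and 10 turned sign; of the list counts, 336 stayed within 1.5 times and 72 did not. Of the members 4 of 8 have mean levels under 4, where 0.228% of all genes passed.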
